A study of Homo sapiens with 4 samples.

Results

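The Schlafen family was taken as the 6 human genes of that name in a cluster on chromosome 17: SLFN5, SLFN11, SLFN12, SLFN12L, SLFN13 and SLFN14. These are 6 of the 63568 gene identifiers in the deposited tables. The set was chosen by family name and selected on the measured counts and fold change of SLFN5, so its fold change is given below as a description, without a test. RNA-Seq of polyadenylated RNA was carried out in HGC-27, an established human gastric carcinoma cell line, after lentiviral infection with a scrambled Control shRNA (2 libraries) or with an shRNA against USP47 (2 libraries). USP47 is a deubiquitinase, an enzyme that removes ubiquitin from proteins. The study used 2 independent USP47 shRNAs, and which of them each library carries is not stated in the sources used here. All 4 libraries therefore come from infected cultures of the same line. The series text also mentions a DMSO vehicle for control cells, without saying for which samples, and the sample labels name no agent besides the virus. It calls the samples biological duplicates, but nothing states that they are separate infections, so p-values measure the spread between these libraries, which may be technical.

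Schlafen proteins are mostly known from blood cells and fibroblasts, where several of their genes are induced by type I interferon. They share a core fold with endoribonuclease activity in several members, which cut tRNA or ribosome-bound RNA. The longer members (SLFN5, SLFN11, SLFN13 and SLFN14) add a helicase-like part, whereas SLFN12 and SLFN12L lack it. SLFN5 is a nuclear, interferon-inducible protein linked to transcriptional repression and to restriction of herpesvirus. SLFN11 is recruited to stressed replication forks through the single-stranded DNA binding protein RPA and sensitizes cells to DNA-damaging drugs. SLFN12 becomes an active RNase when velcrin compounds glue it to the phosphodiesterase PDE3A. SLFN13 cleaves tRNA and rRNA, and SLFN14 is a ribosome-associated endoribonuclease of platelets and red cell precursors.

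The libraries held 16302068 and 19529469 counts (Control shRNA replicates 1 and 2) and 20140273 and 15649899 counts (USP47 shRNA replicates 1 and 2). USP47 had 1357 and 1297 counts in the control libraries against 749 and 309 in the USP47 shRNA libraries. Its level was 73.1 ± 9.83 CPM (counts per 1000000, with TMM-scaled library sizes; SD, n = 2) against 28.8 ± 10.2 CPM, a log2 fold change of −1.34 (SE 0.21, adjusted p = 0.00362, edgeR quasi-likelihood test). The knockdown libraries kept 49.3% and 29.5% of the control mean. Of 21932 genes with enough counts to test, 3527 (16.1%) were called at an adjusted p under 0.05, 2097 lower (9.56%) and 1430 higher (6.52%), and the median log2 fold change of all was −0.0083. Without Control shRNA replicate 1 or 2 the number called was 1230 or 1415, and without USP47 shRNA replicate 1 or 2 it was 7270 or 6517. The epithelial identity of the line was poorly marked. Of 10 epithelial and gastric markers 6 had at most 3 counts in any library, keratins KRT18 and KRT19 among them, whereas KRT8 had 10 to 19 counts and the gastric mucin gene MUC6 had 71 to 146. The summed level of the list was 9.02 to 9.32 CPM in control and 6.62 to 9.33 CPM in knockdown libraries. Of the mesenchymal markers, VIM stood at 470 CPM and CDH2 at 0.165 CPM in control libraries.

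The members differ in sequence to a degree that matters for assigning reads. Over aligned coding bases, SLFN11 and SLFN13 were 86.6% identical and SLFN12 and SLFN12L 86.4%, whereas SLFN5 was 64.5% identical to SLFN11, its closest relative, and 56.8% to SLFN14. The longest uninterrupted identical run was 516 bases between SLFN11 and SLFN13, 79 bases between SLFN12 and SLFN12L, and 41 bases between SLFN5 and any other member. Of these runs, 2 and a run shared by 3 members are printed on the sense strand of the genes (hg19/GRCh37), because they show how long a fragment can be before it tells the members apart.
SLFN5 and SLFN11, chr17:33592182-33592222 in SLFN5: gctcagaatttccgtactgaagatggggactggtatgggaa
SLFN12 and SLFN12L, chr17:33738581-33738659 in SLFN12: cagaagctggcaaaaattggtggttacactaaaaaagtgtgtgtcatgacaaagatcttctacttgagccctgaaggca
SLFN11, SLFN12L and SLFN13, chr17:33680390-33680440 in SLFN11: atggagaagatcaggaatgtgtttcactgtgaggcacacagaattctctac
The SLFN5 run lies on the forward strand and the other runs on the reverse strand of the chromosome. No 100-base word of the SLFN5 exons recurred in another member or in the transcripts of any other gene. Within the family, SLFN5 shared no word of 50 bases either. In SLFN11, 7.26% of 100-base words were shared with SLFN13, and 4.60% of SLFN13 words were shared in turn, so counts of these genes could be split between them. SLFN12L shared 10.1% of its words with overlapping annotated genes and SLFN14 shared 2.26%. No annotated gene overlaps SLFN5, whereas 7 overlap SLFN12L and 1 overlaps SLFN14.

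SLFN5 (ENSG00000166750, chr17:33570090-33600674, forward strand) carried nearly all reads of the family and was lower with USP47 shRNA. It had 518 and 561 counts in Control shRNA replicates 1 and 2, 169 in USP47 shRNA replicate 1 and 104 in replicate 2. Corrected for library size, these were 30.5, 28.6, 8.13 and 7.25 CPM. Both control libraries lay above both knockdown libraries, which is a description only, since SLFN5 was selected on this contrast. How many of all genes tested separate in this way was not counted. The group means were 29.6 ± 1.38 CPM in control and 7.69 ± 0.622 CPM in knockdown libraries (SD, n = 2). The knockdown libraries kept 27.5% and 24.5% of the control mean (26.0% over the group), a log2 fold change of −1.94 (SE 0.15). Among the 21932 genes tested, 140 had a lower log2 fold change. Of the 2663 genes with an average log2 CPM within 0.5 of that of SLFN5, SLFN5 included, 4 were lower. SLFN5 is the only member (1 of 6) past the filter on low counts. Of all genes tested 9.56% were called lower, and since SLFN5 was selected on this contrast nothing is read from its place among them. In bulk RNA, fewer cells with a transcript and less transcript per cell cannot be told apart.

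The order of the 2 knockdown libraries was the same for USP47 and SLFN5, replicate 2 being lower in both. The difference between the knockdown libraries was smaller for SLFN5, at 27.5% and 24.5% of control, than for USP47, at 49.3% and 29.5%. With 2 libraries this is a description only.

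**Figure D1:**
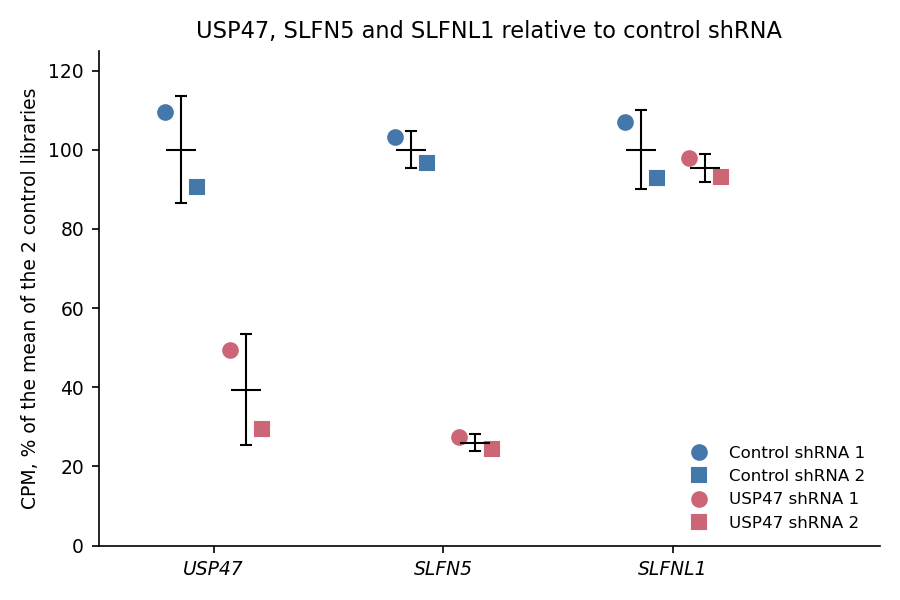
CPM of USP47, SLFN5 and SLFNL1 in each library as a percentage of the mean of the 2 control libraries, with points for libraries and black marks for the group mean ± SD (n = 2). SLFN5 sits at 27.5% and 24.5% in the knockdown libraries and SLFNL1 at 98.0% and 93.0%.

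Per length, SLFN5 was a gene of middling abundance. Its deposited TPM, transcripts per 1000000, which corrects for gene length, was 4.15 and 3.42 with Control shRNA, against 1.10 and 0.734 with USP47 shRNA. The control mean of 3.79 ± 0.516 TPM lay at the 43.4th percentile of the genes tested, whose median was 4.83 TPM. With knockdown it was 0.917 ± 0.259 TPM.

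The other 5 members were at or near the limit of counting in every library. SLFN11 (ENSG00000172716, chr17:33677324-33700720) had 2, 2, 4 and 1 counts, in the order Control shRNA replicates 1 and 2 and USP47 shRNA replicates 1 and 2. SLFN13 (ENSG00000154760, chr17:33762115-33775856), a tRNA and rRNA nuclease, had 1, 1, 3 and 1 counts in that order. SLFN12L (ENSG00000205045, chr17:33791268-33864697), the near copy of SLFN12, had 2, 0, 1 and 0. None of them exceeded 4 counts in a library, and all were within a few counts of 0 in both groups. SLFN14 (ENSG00000236320, chr17:33871004-33887838) had a single count, in USP47 shRNA replicate 2, and SLFN12 (ENSG00000172123, chr17:33737941-33760302) had 0 in all 4 libraries. All 5 lie on the reverse strand. A count of 0 allows up to 3 counts per library, which is 0.177, 0.153, 0.144 and 0.209 CPM in the same order.

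Summed over the 4 libraries, SLFN11 had 9 counts (95% exact Poisson interval 4.12 to 17.1), SLFN13 had 6 (2.20 to 13.1), SLFN12L had 3 (0.619 to 8.77) and SLFN14 had 1 (0.0253 to 5.57). The intervals of neighbours in this order overlap, and they cover counting error only. The 5 genes were not tested and no fold change is given for them. From such low counts a fall with USP47 shRNA could not be detected, and none of the 5 exceeded 4 counts in a knockdown library. Of 1371 counts of the family in all libraries, 1352 (98.6%) were SLFN5 and 19 fell on the other 5 members. The SLFN5 share was 99.0% and 99.5% with Control shRNA, against 95.5% and 97.2% with USP47 shRNA. The other members together held 5, 3, 8 and 3 counts in the same order.

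In control libraries the per-length order was SLFN5 at 3.79 TPM, SLFN11 at 0.0253, SLFN12L at 0.0179, SLFN13 at 0.00811, and SLFN12 and SLFN14 at 0. Beyond SLFN5 each value rests on at most 4 counts in 2 libraries, and the order among them is not resolved. The lengths behind the TPM values differ from the exon lengths for some members. Relative to SLFN5, the length implied for SLFN12L was 0.448 against 1.28 from its annotated exons, and for SLFN14 it was 0.270 against 0.672, whereas SLFN11 (0.559 and 0.560) and SLFN13 (0.871 and 0.874) were close.

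**Figure D2:**
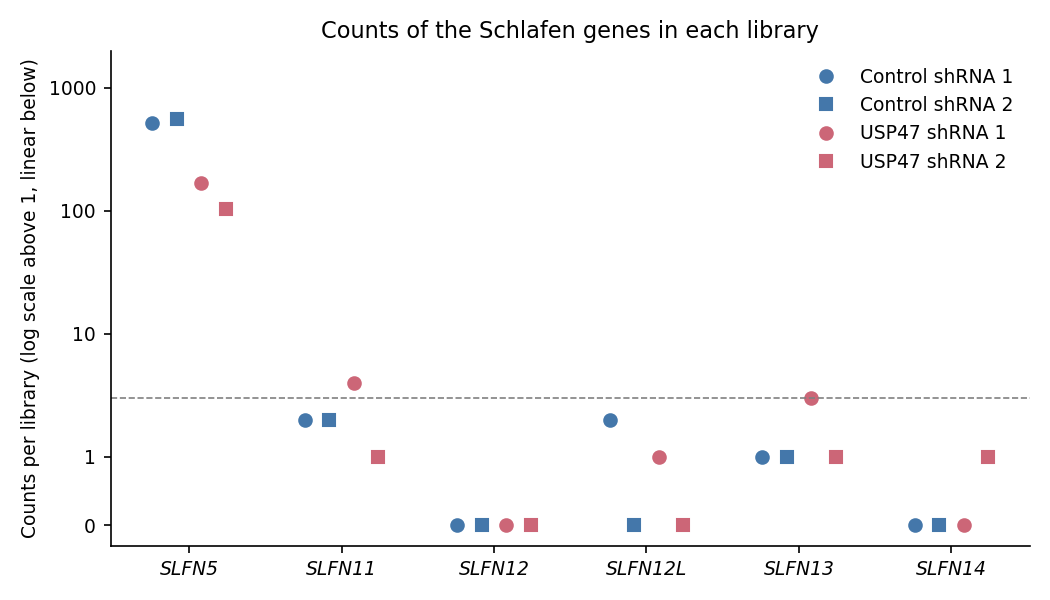
Counts of the 6 Schlafen genes in each of the 4 libraries, on an axis that is logarithmic above 1 and linear below; the dashed line marks 3 counts. SLFN5 lies between 104 and 561 counts, and no other member exceeds 4.

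SLFNL1 (ENSG00000171790, chr1:41481261-41488909, reverse strand), a Schlafen-like gene outside the cluster and outside the rule, was expressed at a CPM close to that of SLFN5 in control cells. It had 532, 534, 597 and 391 counts in the order given above. The groups overlapped, at 29.3 ± 2.93 CPM in control and 28.0 ± 1.03 CPM in knockdown libraries. The log2 fold change was −0.06 (SE 0.14, adjusted p = 0.782, edgeR), and its level per length was 9.35 TPM in control.

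Promoter sequence was taken from RefSeq (GRCh38.p14, a window around the start of the gene), where 3 of the 6 members matched: SLFN11, SLFN12 and SLFN12L. They are printed on the sense strand because Schlafen genes are known interferon targets, with matches to interferon-type motifs in capitals. All 3 genes had at most 2 counts in any control library, so these letters stand beside promoters with almost no measured output here.
SLFN11, chr17:35373572-35373871: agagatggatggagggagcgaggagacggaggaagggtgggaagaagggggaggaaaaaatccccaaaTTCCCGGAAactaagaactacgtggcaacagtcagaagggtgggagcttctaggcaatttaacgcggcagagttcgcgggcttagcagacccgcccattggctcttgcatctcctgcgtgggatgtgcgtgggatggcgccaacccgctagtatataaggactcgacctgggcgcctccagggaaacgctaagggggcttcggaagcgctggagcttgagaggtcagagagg
SLFN12, chr17:35433125-35433424: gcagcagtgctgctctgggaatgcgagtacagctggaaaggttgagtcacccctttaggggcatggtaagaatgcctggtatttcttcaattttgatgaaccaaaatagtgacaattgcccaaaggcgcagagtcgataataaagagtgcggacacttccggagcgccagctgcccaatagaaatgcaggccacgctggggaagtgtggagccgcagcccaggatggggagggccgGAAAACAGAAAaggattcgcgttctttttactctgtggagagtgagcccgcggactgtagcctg
SLFN12L, chr17:35537629-35537928: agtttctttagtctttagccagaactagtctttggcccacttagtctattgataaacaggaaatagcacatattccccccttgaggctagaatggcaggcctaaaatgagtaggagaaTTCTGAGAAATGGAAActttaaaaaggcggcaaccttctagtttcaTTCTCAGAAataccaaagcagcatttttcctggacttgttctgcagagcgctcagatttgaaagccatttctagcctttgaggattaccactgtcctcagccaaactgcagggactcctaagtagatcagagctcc
The motifs searched on both strands were the interferon-stimulated response element core (GAAA, a spacer of 2 or 3 bases of any kind, GAAA), the gamma-activated sequence (TTCNNNGAA), the E-box CAGGTG and the GLI consensus GACCACCCA. SLFN11 held a gamma-activated sequence match starting 182 bases upstream of the start. SLFN12 held the core with 3 spacer bases, 14 bases upstream. SLFN12L held the core with 2 spacer bases, 126 bases upstream, which overlaps a gamma-activated sequence match at 132, and a further such match at 86. Neither CAGGTG nor GACCACCCA was found in the 3 windows. Over 35116 RefSeq promoters of the same length, the core with 2 spacer bases occurred in 3.57%, with 3 in 2.86%, TTCNNNGAA in 7.66%, CAGGTG in 20.6% and GACCACCCA in 0.236%. The windows held 18, 13 and 2 CpG dinucleotides for SLFN11, SLFN12 and SLFN12L, against a median of 14, and their GC content was 58.0%, 53.3% and 43.0%, against 58.7%. A match is a match of letters only, not evidence of binding.

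The Schlafen cluster spans 317749 bases (chr17:33570090-33887838), and few other genes in it gave reads. Of 17 non-member genes inside it, 12 had 0 counts, and the highest value was 5 counts in a library. Within 1000000 bases on either side, these 17 included, 80 of 119 other annotated genes were in the tables and 16 were tested. Of the 80, 42 had 0 counts in all 4 libraries. They include every gene from RASL10B to CCL5 (chr17:34058658-34207797), TAF15 among them. These are 0 counts under the identifiers matched here. They are not read as absence of expression or of coverage in that stretch, and why they are 0 was not tested. Of the 16 tested genes, 3 fell (18.8%, against 16.1% of all genes tested) and 0 rose, with a median log2 fold change of −0.069. An unadjusted p under 0.05 was reached by 7, and DESeq2 called 2. Without USP47 shRNA replicate 2 the number called was 6. TMEM132E, a transmembrane protein gene, fell from 23.4 ± 2.24 CPM to 9.35 ± 1.66 CPM (log2 fold change −1.33, SE 0.17, adjusted p = 0.00125, edgeR). Its divergent transcript TMEM132E-DT fell as well, at a low level, with 15, 12, 3 and 2 counts (log2 fold change −2.32, SE 0.55, adjusted p = 0.0184, edgeR). RFFL, an E3 ubiquitin ligase gene, fell from 11.8 ± 0.131 CPM to 6.51 ± 1.53 CPM (log2 fold change −0.88, SE 0.19, adjusted p = 0.0132, edgeR). The nearest tested gene, the lncRNA ENSG00000266947, ends 107 bases before SLFN5 on the opposite strand and is named for its position, after its values were seen. It had 12, 10, 15 and 11 counts and did not pass (log2 fold change 0.29, SE 0.39, adjusted p = 0.642, edgeR). Corrected for library size, the counts were 0.707, 0.510, 0.721 and 0.766 CPM, so both knockdown libraries lay slightly above both control libraries. Whether reads were counted by strand is not given in the sources used here, and of 46 other named genes that were checked for it 32 overlap an annotated gene on the opposite strand.

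**Figure D3:**
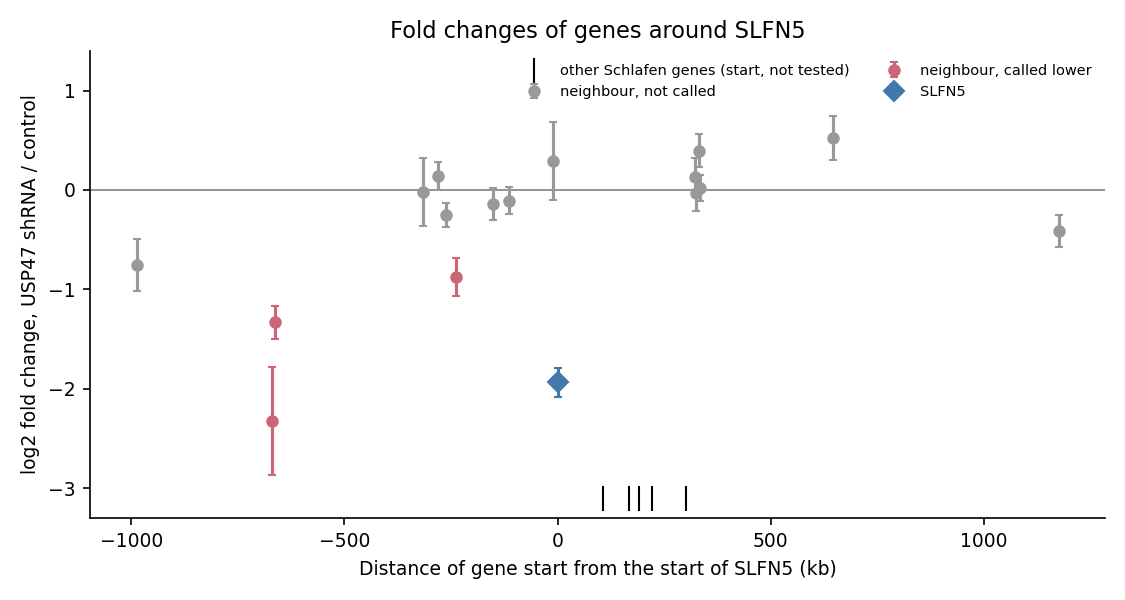
Log2 fold change (USP47 shRNA over control, bars ± SE) of SLFN5 and of the 16 tested genes within 1000000 bases of the cluster, against the distance of the gene start from that of SLFN5 in kb; ticks mark the untested Schlafen genes. SLFN5 lies at −1.94, 3 neighbours are called lower and 0 higher.

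Type I interferon drives several Schlafen genes through the receptor chains IFNAR1 and IFNAR2, the STAT proteins and the IRF factors. The interferon signalling list is wider than this pathway and also holds the type II receptor genes IFNGR1 and IFNGR2 and feedback genes. All 20 listed genes were tested: 4 rose, 2 fell and 14 did not pass, with a median log2 fold change of 0.11. The share called was 30.0%, against 16.1% of all genes. IFNAR1 rose from 34.0 ± 1.06 CPM to 51.9 ± 2.44 CPM (log2 fold change 0.61, SE 0.13, adjusted p = 0.0113, edgeR). The partner chain IFNAR2 moved the other way, at a log2 fold change of −0.74 (SE 0.18, adjusted p = 0.0202, edgeR). The phosphatase gene PTPN11 fell by 0.55 on the log2 scale (adjusted p = 0.0193, edgeR). The transcription factor genes IRF2 (0.52, adjusted p = 0.0268), IRF1 (0.60, adjusted p = 0.0279) and STAT3 (0.49, adjusted p = 0.0439) rose on the log2 scale. Without Control shRNA replicate 1 or 2 none of the list was called, and without USP47 shRNA replicate 1 or 2 the number was 9 or 10.

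Of 45 interferon-stimulated genes, 34 were tested, 2 rose, 4 fell and 28 did not pass, and the median log2 fold change was 0.19. The share of 17.6% called is close to the 16.1% of all genes. IFI27, a mitochondrial interferon-induced protein gene, had 48, 70, 20 and 11 counts and fell from 3.20 ± 0.522 CPM to 0.864 ± 0.138 CPM (log2 fold change −1.86, SE 0.29, adjusted p = 0.00322, edgeR). TRIM5, a retrovirus restriction factor, fell from 35.3 ± 0.377 CPM to 20.3 ± 1.48 CPM (log2 fold change −0.80, SE 0.13, adjusted p = 0.00445, edgeR). OAS3, a sensor of double-stranded RNA, fell by 1.00 on the log2 scale (adjusted p = 0.0126, edgeR), and IFIT5, which binds viral RNA, fell by 0.73 (adjusted p = 0.0282). HERC6 rose by 0.87 (adjusted p = 0.0145, edgeR) and SP100, a nuclear body component, by 0.61 (adjusted p = 0.037). The list thus held members that moved in either direction. Without Control shRNA replicate 1 or 2 the number called was 3 or 2, and without USP47 shRNA replicate 1 or 2 it was 15 or 11.

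For SLFN11, which was almost unread here, the genes it is known to work with were expressed. Of 27 replication stress partners all were tested, 3 fell and 0 rose, with a median log2 fold change of −0.13. The share called was 11.1%, against 16.1% of all genes. RPA1, the large RPA subunit through which SLFN11 reaches forks, had 89.3 and 85.5 CPM in control against 52.5 and 52.3 CPM in knockdown libraries. It fell by 0.74 on the log2 scale (SE 0.12, adjusted p = 0.00432, edgeR). The checkpoint kinase gene WEE1 fell by 0.51 (adjusted p = 0.0222, edgeR) and the fork protection gene TIPIN by 0.57 (adjusted p = 0.0343, edgeR). TOP2A (log2 fold change −0.72, adjusted p = 0.0504) and the kinase gene ATR (−0.14, adjusted p = 0.584) did not pass in edgeR. DESeq2 called 5 of the list, 4 lower and 1 higher. TOP2A was among them (adjusted p = 0.0124, DESeq2), whereas TIPIN was not (adjusted p = 0.110, DESeq2). Without Control shRNA replicate 1 none was called by edgeR, and without USP47 shRNA replicate 1 or 2 the number was 11 or 9.

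Of 11 genes listed as regulators of SLFN11, 10 were tested, 1 rose and 1 fell, with a median log2 fold change of 0.043. The share called was 20%, against 16.1% of all genes. ETS1, a transcription factor gene, fell from 41.1 ± 1.86 CPM to 27.0 ± 3.30 CPM (log2 fold change −0.61, SE 0.14, adjusted p = 0.0169, edgeR). The deacetylase gene HDAC1 rose by 0.59 (adjusted p = 0.018, edgeR). Its relative and a Polycomb subunit gene, HDAC2 (log2 fold change −0.38, adjusted p = 0.0817) and SUZ12 (log2 fold change 0.34, adjusted p = 0.136), did not pass (edgeR). EZH2, the histone methyltransferase of the repressive Polycomb complex, was at a log2 fold change of −0.06 and did not pass. FLI1, the other ETS-type regulator, had 2, 0, 2 and 1 counts and was not tested. Without Control shRNA replicate 1 or 2 the number called was 0, and without USP47 shRNA replicate 1 the number called was 4.

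The 3 genes of the SLFN12 velcrin complex were expressed although SLFN12 had no read, and none passed the test. PDE3A, the phosphodiesterase partner, was at 24.3 ± 2.88 CPM and 31.1 ± 3.72 CPM, a log2 fold change of 0.36 (SE 0.15, adjusted p = 0.123, edgeR). PDE3B, its close relative, was at 0.25 on the log2 scale. At an unadjusted p under 0.05 there was 1, and DESeq2 called 0. Without USP47 shRNA replicate 2 the number called by edgeR was 2.

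SLFN11, SLFN13 and SLFN14 cut tRNA or ribosome-bound RNA, and 25 genes of RNA cleavage and ribosome rescue were listed beside them, most of them endoribonucleases and some their partners. Of these 24 were tested, 4 rose and 1 fell, with a median log2 fold change of 0.040. The share called was 20.8%, against 16.1% of all genes. CLP1, a kinase of the tRNA splicing complex, rose from 14.5 ± 1.22 CPM to 24.9 ± 0.945 CPM (log2 fold change 0.78, SE 0.14, adjusted p = 0.00663, edgeR). DICER1, which cuts double-stranded RNA, rose from 99.2 ± 5.98 CPM to 169 ± 38.4 CPM (log2 fold change 0.77, SE 0.16, adjusted p = 0.0127, edgeR). ELAC2, the tRNA 3′ processing enzyme, rose by 0.52 (adjusted p = 0.0212, edgeR), and G3BP1, a stress granule protein, by 0.47 (adjusted p = 0.0373, edgeR). LACTB2, a mitochondrial endoribonuclease, fell by 0.65 (adjusted p = 0.0451, edgeR). Without Control shRNA replicate 1 or 2 the number called was 0 or 1, and without USP47 shRNA replicate 1 it was 11.

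Of 7 genes reported elsewhere as SLFN5 targets, 4 were tested and none passed (edgeR; 1 at an unadjusted p under 0.05, 0 by DESeq2), with a median log2 fold change of −0.18. The transcription factor gene ZEB1 was at −0.21 and the matrix metalloproteinase gene MMP14 at −0.16 on the log2 scale. MMP1, MMP13 and XAF1 had at most 3 counts in a library and were not tested. Without USP47 shRNA replicate 1 or 2 the number called was 1 or 2.

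**Figure D4:**
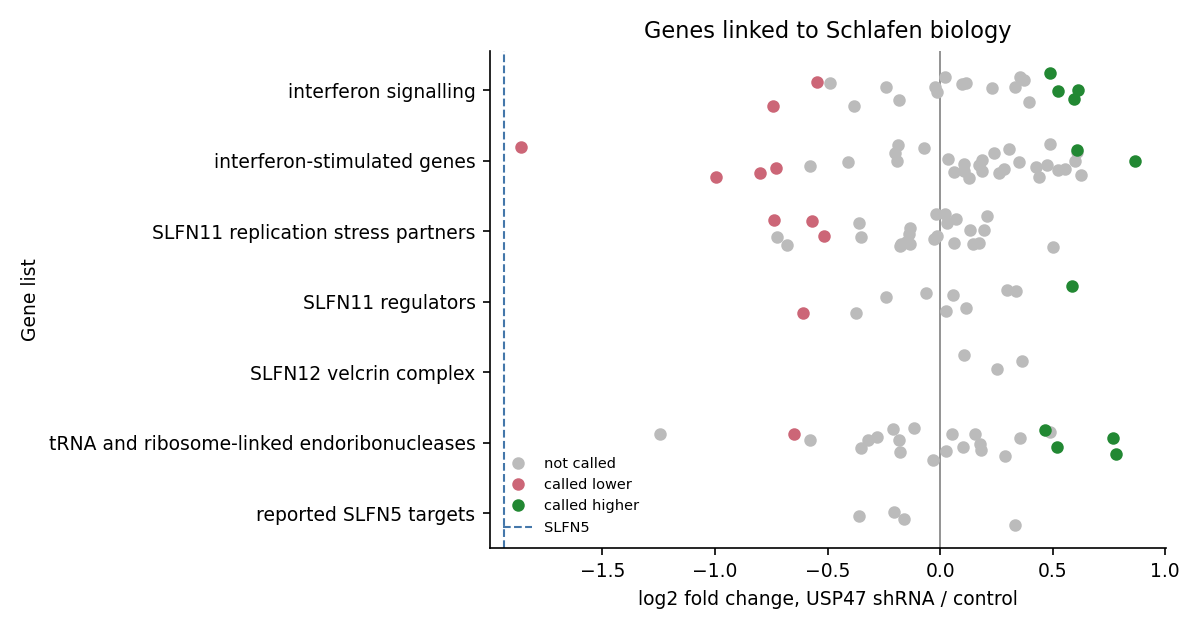
Log2 fold change (USP47 shRNA over control) of each tested gene in 7 lists linked to Schlafen biology, coloured by call at an adjusted p under 0.05 (edgeR); vertical spread within a list is for legibility only. The dashed line at −1.94 marks SLFN5, which was selected on this contrast; called genes lie on both sides of 0 in 4 of the lists.

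Since Schlafen genes are abundant in blood cells, markers of those cells were read beside SLFN5. Of 12 blood and endothelial markers 4 were tested, none was called by edgeR or DESeq2 and 1 had an unadjusted p under 0.05. Their summed level was 11.2 to 11.5 CPM in control and 8.15 to 8.85 CPM in knockdown libraries, and the platelet marker PF4 was at 0. The epithelial marker EPCAM had 12, 11, 3 and 3 counts and fell by 1.84 on the log2 scale (adjusted p = 0.0416, edgeR), the only call in its list, where DESeq2 called 0 and leaving out Control shRNA replicate 1 or 2, or USP47 shRNA replicate 1, gave 0. CDH1, with VIM (470 CPM in control, 427 CPM with knockdown), did not pass. Of the mesenchymal markers 4 were tested and FN1 fell, from 73.5 ± 0.495 CPM to 29.1 ± 4.08 CPM (log2 fold change −1.34, SE 0.14, adjusted p = 0.000602, edgeR). TWIST1 moved the other way, from 107 ± 2.84 CPM to 138 ± 38.0 CPM, and did not pass (log2 fold change 0.37, adjusted p = 0.178, edgeR). The summed list was 739 to 757 CPM in control and 592 to 767 CPM in knockdown libraries. Without USP47 shRNA replicate 1 or 2 the number of mesenchymal markers called was 3 or 2. The part of these shifts in the SLFN5 value was not tested.

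The genes whose profile over the 4 libraries was most like that of SLFN5 were sought among the 2663 tested genes of similar abundance, SLFN5 included, by the distance between log2 CPM values centred on each gene's mean. The 5 nearest were RTKN2 (distance 0.224, log2 fold change −1.74), ST6GALNAC3 (0.319, −1.97), SCN4A (0.385, −1.74), CCDC92 (0.393, −1.59) and TRO (0.394, at 40.1 CPM in control and 10.1 CPM with knockdown). The likeness rests on 4 libraries, 2 to a group.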

How the data were processed

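RNA-Seq of 4 HGC-27 libraries (2 Control shRNA, 2 USP47 shRNA) was analysed. The authors trimmed bases under quality 20, used STAR 2.7.5c for alignment on hg19 and SAMtools 1.9 to discard duplicate and poor alignments, and deposited raw counts and TPM values per gene; the processing notes name featureCounts and DESeq2 1.26.0. The annotation and the strand setting are not given in the sources used here. The labels and the methods name different library kits, and the methods state triplicates where the series text states duplicates; 2 libraries per group are analysed here.

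Counts were filtered with filterByExpr, normalised by TMM and tested with edgeR 4.0.16 (R 4.3.3, glmQLFit with legacy off and robust on, glmQLFTest, Benjamini-Hochberg threshold 0.05), with all 4 libraries in the fit. SE was the absolute log2 fold change over the square root of F. Alternatives used DESeq2 1.42.0 and limma 3.58.1 (log2 of deposited TPM + 0.1). Coordinates and exon sequence are from GRCh37 with GENCODE 44; 55665 identifiers matched a symbol. The script was tested on simulated data. Named genes were the family and further SLFN symbols, USP47, up to 6 called neighbours, up to 4 genes of smallest p per list with known Schlafen partners, and 5 profile-like genes. IRF1, STAT3, IFIT5, SP100, LACTB2, FN1, EPCAM, VIM, CDH1, TWIST1 and ENSG00000266947 were added after their values were seen, or as markers. Some genes of the lists, though counted in them, are not reported here. The members and lists were chosen with earlier results of these data known.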

Additional observations from a re-analysis of the deposited data

How the results depend on the processing

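The log2 fold change of SLFN5 lay between −2.02 and −1.86 in the 12 alternatives, which include leaving out each library; this is a description, since SLFN5 was selected on it and was the only member tested. USP47 ranged from −1.75 to −1.01 without single libraries and was −1.48 with limma on TPM, no longer past the threshold. The number of genes called was 3527, against 3495 with DESeq2 size factors, 2800 with library size alone (31.5% higher, against 40.5%), 2893 without a filter, 3276 with at least 10 counts everywhere, 3485 with the legacy quasi-likelihood setting (added after seeing the data), 2455 with the DESeq2 Wald test (47.0% higher), 219 with limma on TPM (18.7% higher), and 1230 to 7270 without single libraries. On TPM the median over all genes was −0.135 (log2), against −0.0083.

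The replicate numbers share only a number (correlation of deviations 0.213, 2 pairs). With them as a replicate block, 7422 genes were called, and 10 in interferon signalling, 14 interferon-stimulated genes, 8 replication stress partners, 5 SLFN11 regulators, 1 velcrin complex gene, 12 RNA cleavage genes, 1 SLFN5 target, 1 blood marker, 2 mesenchymal markers and 7 neighbours.

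Library size alone gave 5 replication stress partners, 2 RNA cleavage genes and 0 epithelial markers. Epithelial markers were also 0 without a filter, with at least 10 counts and with the DESeq2 Wald test, which gave 5 replication stress partners. On TPM, interferon signalling, interferon-stimulated genes, partners, regulators, RNA cleavage genes, epithelial markers, mesenchymal markers and neighbours all had 0. Without single libraries the ranges were 0 to 10 in interferon signalling, 2 to 15 interferon-stimulated genes, 0 to 11 partners, 0 to 4 regulators, 0 to 2 velcrin genes, 0 to 11 RNA cleavage genes, 0 to 2 SLFN5 targets, 0 to 1 blood markers, 0 to 1 epithelial markers, 1 to 3 mesenchymal markers and 2 to 6 neighbours. The cause of these moves was not tested.

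The 32 called genes named outside the family and USP47 kept their direction in all 380 alternative values and lost the call in 88; 11 and 13 were still called without Control shRNA replicate 1 and 2, and 2 on TPM. Uncalled genes that turned sign without single libraries were ATR (−0.33 to 0.043), EZH2 (−0.15 to 0.031), ZEB1 (−0.51 to 0.054), CDH1 (−0.28 to 0.97), MMP14 (−0.50 to 0.13), VIM (−0.41 to 0.10) and SLFNL1 (−0.17 to 0.040). TWIST1 was not checked for this. With words of 50 bases instead of 100, the share of SLFN12 found in another member was 1.47% and that of SLFN12L 0.629%, against 0. With 2 libraries a group, the 5 members outside the test could not be compared.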
